A study of Homo sapiens with 4 samples.

Results

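The adenylyl cyclase family was examined in A375 human melanoma cells. The members were the 10 genes ADCY1 to ADCY10, chosen by gene symbol, and all 10 were among the 2864 genes with values in the table used here. A375 is a melanoma cell line, and vemurafenib (VEM) is an inhibitor of mutant BRAF kinase. Sequenced RNA came from untreated parental cells (A375P), from a strain kept in vemurafenib of increasing concentration until it was resistant (A375R), from cells given the solvent DMSO at 1‰ for 48 h (A375+DMSO) and from cells given 2 μM vemurafenib for 48 h (A375+VEM). All 4 were labelled as wild type and carried the same batch label. The study concerns BRAF-mutated melanoma, so this label should not be read as the state of BRAF. A375R was a strain derived in the study's laboratory from these A375 cells. The labels do not say whether it was in vemurafenib when its RNA was taken. The study set A375R against A375P for stable resistance and A375+VEM against A375+DMSO for the acute response. There was 1 library per condition, so differences between libraries had no replicate check and were not tested.

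Adenylyl cyclases make the second messenger cAMP from ATP. The 9 membrane-bound enzymes, ADCY1 to ADCY9, are switched on by receptors coupled to the G protein Gs and in part switched off by receptors coupled to Gi, and they differ in how calcium, calmodulin and G protein beta gamma subunits act on them. ADCY10 is the soluble enzyme, which responds to bicarbonate. cAMP activates protein kinase A, which phosphorylates CREB. In pigment cells the melanocortin receptor uses this route to raise the transcription factor MITF, and cAMP signals also meet the RAF kinases of the pathway that vemurafenib blocks.

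Levels are given as the authors' TPM (reads per gene length, scaled to a fixed total per library), so that genes can be compared per length. The 2864 genes held between 1891215 and 2054277 reads per library and between 8.48% and 8.94% of each library's TPM, which is part of the library and not its depth. Intervals are at 95%, come from the reads alone and cover counting error only. They treat reads as independent molecules, which reads are not, so they can be too narrow. A gene was called higher or lower when its ratio of (TPM + 0.1) passed 1.5-fold, provided that 1 or both of the libraries compared had it at a TPM of 1 or more. Where 4 values of a gene follow each other they stand in the order A375P, A375R, A375+DMSO, A375+VEM. Fewer cells of a kind and less RNA per cell cannot be told apart in such bulk libraries. Of 5 markers of the melanocyte lineage and melanoma in the table, 4 reached a TPM of 1 in at least 1 library, with a summed TPM between 22.2 in A375+DMSO and 65.7 in A375R, while ABCB5 had at most 6 reads. The high sum in A375R came from BCL2A1, with a TPM of 37.5 there and 7.67 in A375P. BCAN was at 27.6 in A375R and 34.1 in A375P, and APOD at 0.46 and 2.89. BIRC7 and ABCB5, both with few reads, were also lower in A375R than in A375P. MLANA, PMEL and TYR were not analysed here. All 5 hepatocyte markers also reached a TPM of 1 in at least 1 library, with a summed TPM between 60.6 in A375+VEM and 81.5 in A375P, most of it from ALB. The macrophage, B cell and adipocyte markers all stayed under a TPM of 1.

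Only 4 of the 10 genes, ADCY6, ADCY3, ADCY7 and ADCY9, were above a TPM of 10 in every library. Together they made up 96.9%, 99.0%, 98.6% and 98.9% of the summed adenylyl cyclase TPM. ADCY1 lay near a TPM of 1, and the other 5 genes were below it in all 4 libraries. The plot of TPM by gene and library shows this gap between the 4 abundant genes and the rest.

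**Figure D1:**
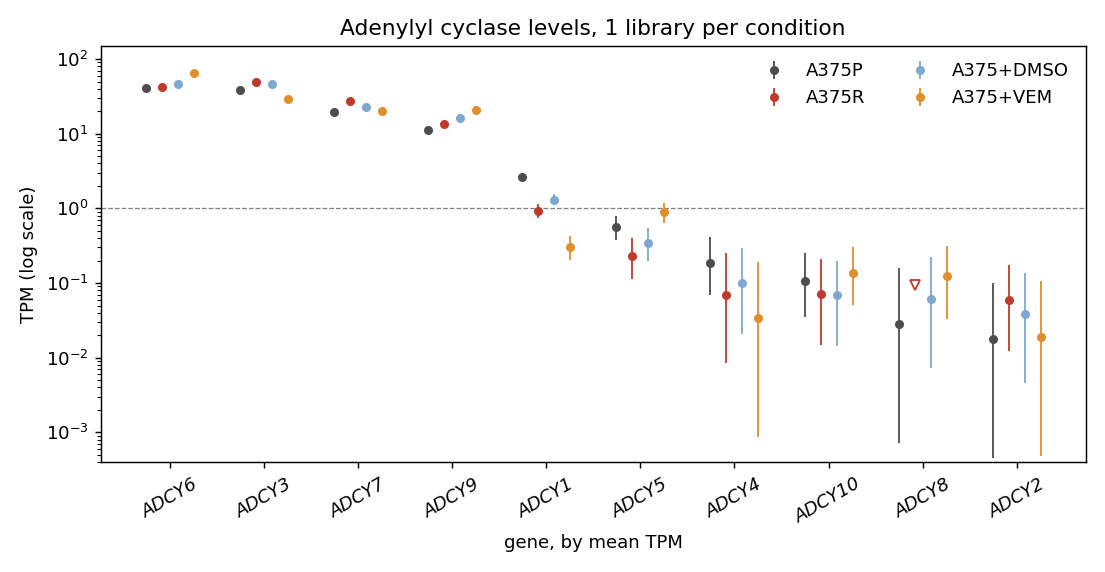
TPM of the 10 adenylyl cyclase genes on a log axis, ordered by mean TPM, with 1 point per library. Bars are exact 95% Poisson intervals on the reads, the open triangle marks the TPM that 3 reads would give where none was counted, and the dashed line is a TPM of 1. ADCY6, ADCY3, ADCY7 and ADCY9 lie between 11.1 and 65.4, whereas ADCY4, ADCY10, ADCY8 and ADCY2 lie at or below 0.19.

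ADCY6 encodes an enzyme that calcium inhibits. The gene spans 49159974 to 49182879 of chromosome 12 (minus strand) in the coordinates of the authors' table, for which the submitters' processing notes name the build hg19. Its reads numbered 2116, 1970, 2239 and 3168. The TPM was 40.5 (95% interval 38.8 to 42.2), 41.7 (39.9 to 43.6), 45.9 (44.0 to 47.8) and 65.4 (63.1 to 67.7). A375+VEM stood above the other 3 libraries, whose values lay close together.

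ADCY3, which is stimulated by calcium and calmodulin in part of its known settings and is the cyclase of olfactory neurons and of many primary cilia, spans 25042038 to 25142886 of chromosome 2 (minus strand). From 1557, 1799, 1782 and 1106 reads its TPM was 38.4 (36.5 to 40.3), 49.1 (46.9 to 51.4), 47.1 (44.9 to 49.3) and 29.4 (27.7 to 31.2). ADCY3 was thus lowest in the library where ADCY6 was highest.

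ADCY7, an enzyme that G protein beta gamma subunits stimulate and that is well known from blood cells, spans 50300451 to 50352046 of chromosome 16 (plus strand). There were 1046, 1325, 1144 and 1011 reads, which gave a TPM of 19.5 (18.3 to 20.7), 27.3 (25.9 to 28.8), 22.8 (21.5 to 24.2) and 20.3 (19.1 to 21.6). A375R was the highest library, and the intervals of A375P and A375+VEM overlapped.

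ADCY9, a widely expressed enzyme with little response to forskolin, is also on chromosome 16, between 4012650 and 4166186 (minus strand). It was counted 737, 814, 1018 and 1269 times. The TPM was 11.1 (10.3 to 12.0), 13.6 (12.7 to 14.6), 16.5 (15.5 to 17.5) and 20.7 (19.6 to 21.9), and no 2 of these intervals overlapped.

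ADCY1, a calcium and calmodulin-stimulated enzyme best known from neurons, spans 45613739 to 45762715 of chromosome 7 (plus strand). It was the fifth gene by mean TPM and varied most among those that reached a TPM of 1. Its 288, 93, 135 and 31 reads gave a TPM of 2.60 (2.31 to 2.92), 0.93 (0.75 to 1.14), 1.31 (1.09 to 1.55) and 0.30 (0.21 to 0.43). A375P was the highest library and A375+VEM the lowest. ACTA2, 1 of 2 smooth muscle and myofibroblast markers, was also highest in A375P, with a TPM of 92.2 against 28.3 to 40.1 in the other libraries. It came next in A375+VEM, where ADCY1 was lowest. The other marker, ACTG2, stayed under a TPM of 1 and was highest in A375+VEM, at 0.85. The part of these markers in the ADCY1 result was not tested.

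ADCY5, the close relative of ADCY6 known from striatum and heart, spans 123001143 to 123167392 of chromosome 3 (minus strand). It had only 30, 11, 17 and 44 reads, and its TPM was 0.56, 0.23, 0.34 and 0.89. These values stayed under the filter on low values, so ADCY5 was not called in any comparison. ADCY2 and ADCY4, which belong with ADCY7 to the beta gamma-stimulated enzymes, the neuronal ADCY8 and the soluble ADCY10 had at most 6 reads in each library. ADCY8 had 0 reads in A375R, for which the floor of 3 reads stands at a TPM of 0.0945 and the exact Poisson interval ends at 0.116. No difference between libraries was detectable at this depth for these 4 genes.

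Within a library the order of the genes was partly fixed by the reads. ADCY6 and ADCY3 did not differ beyond counting error in A375P, with a ratio of 1.05 (0.99 to 1.13), nor in A375+DMSO, where the ratio of ADCY3 to ADCY6 was 1.03 (0.96 to 1.09). In A375R ADCY3 led, at 1.18 times ADCY6 (1.10 to 1.26). In A375+VEM ADCY6 led, at 2.22 times ADCY3 (2.07 to 2.38), and ADCY9 and ADCY7 were level there, with a ratio of 1.02 (0.94 to 1.11). ADCY7 was above ADCY9 in the other 3 libraries, by 1.39 to 2.01 times. ADCY5 was above ADCY1 in A375+VEM, at 2.93 times (1.81 to 4.81), and below it elsewhere.

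Ratios between 2 genes of 1 library do not depend on how libraries are scaled to each other. From A375+DMSO to A375+VEM the ratio of ADCY6 to ADCY3 went from 0.97 to 2.22, a 2.28-fold difference (2.08 to 2.50). Against A375P the same ratio was 2.11-fold higher in A375+VEM (1.92 to 2.32). The ratio of ADCY9 to ADCY3 differed 2.01-fold in the same direction (1.79 to 2.25) and that of ADCY7 to ADCY3 1.42-fold (1.27 to 1.60). All 3 ratios had ADCY3 as the denominator. In the resistant pair the ratio of ADCY6 to ADCY3 moved the other way and less, to 0.81 of its value in A375P (0.73 to 0.88). The plot of ratios within each library shows A375+VEM apart from the other 3.

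**Figure D2:**
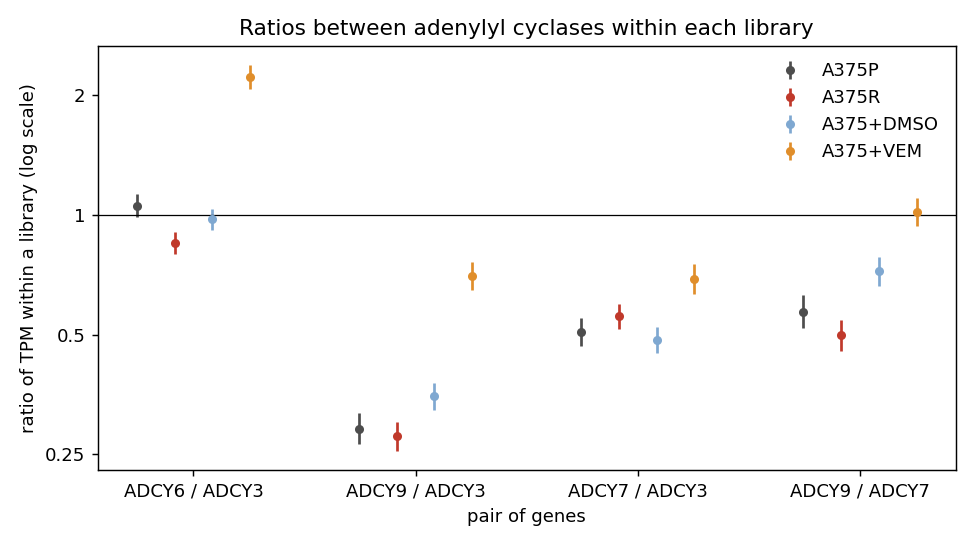
Ratio of TPM between 2 adenylyl cyclase genes within each library, on a log axis, with exact 95% intervals on the reads. For ADCY6 over ADCY3 the A375+VEM library is at 2.22, and the other 3 libraries are between 0.85 and 1.05.

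Summed over the 10 genes, the TPM was 113 (110 to 116), 133 (130 to 137), 134 (131 to 138) and 137 (134 to 141). A375P was the lowest, and the intervals of the other 3 overlapped. The sum in A375+VEM was 1.02 times that in A375+DMSO, while its make-up differed. The calcium and calmodulin-stimulated enzymes ADCY1, ADCY3 and ADCY8 held 36.1% of the sum after DMSO and 21.7% after vemurafenib. The calcium-inhibited enzymes ADCY5 and ADCY6 held 34.4% and 48.3%. The share of ADCY9 was 12.3% and 15.1%, and that of the beta gamma-stimulated ADCY2, ADCY4 and ADCY7 was 17.1% and 14.8%. In A375R the calcium and calmodulin-stimulated enzymes held 37.6% and the calcium-inhibited ones 31.5%, against 36.3% each in A375P. These classes are nearly ADCY3, ADCY6 and ADCY7 alone, since their other members were scarce.

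**Figure D3:**
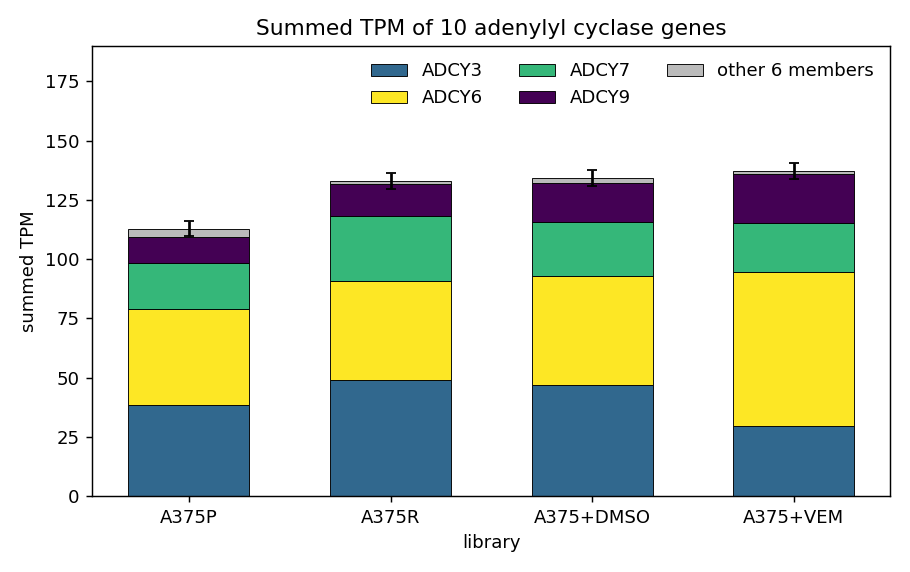
Summed TPM of the 10 adenylyl cyclase genes in each library, stacked by gene, with the 95% counting interval of the sum. The total is 113 in A375P and between 133 and 137 elsewhere, and ADCY6 takes the largest part of the bar in A375+VEM.

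Between A375R and A375P, 5 of the 10 genes passed the filter on low values, and 1 of these, ADCY1, was lower. Over all 1689 genes compared, 17.5% were lower, 26.8% higher and 44.3% either by the same rule, so a share of 1 in 5 was near the background. ADCY1 fell from a TPM of 2.60 to 0.93, a ratio of 0.357 (0.280 to 0.453) and a log2 ratio of -1.39. The other 4 genes did not pass 1.5-fold. ADCY7 had a ratio of 1.40 (1.29 to 1.52), ADCY3 1.28 (1.19 to 1.37), ADCY9 1.22 (1.11 to 1.35) and ADCY6 1.03 (0.97 to 1.10). The median log2 ratio of the 5 genes was 0.29, beside 0.10 over all genes compared. Set to that median, ADCY6 was at -0.06 in place of 0.04, so its direction depends on the scaling.

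Between A375+VEM and A375+DMSO, ADCY1 and ADCY3 were lower and no member was higher among the 5 compared. The background was 19.7% lower, 26.5% higher and 46.2% either of 1784 genes. ADCY1 fell to a ratio of 0.231 (0.151 to 0.344), at a log2 ratio of -1.81, and lay at percentile 5.1 of the genes compared. ADCY3 fell to a ratio of 0.625 (0.579 to 0.674), at a log2 ratio of -0.68, and the interval includes the ratio at which a gene is called. ADCY6 stood at 1.42 times its A375+DMSO level (1.349 to 1.505), ADCY9 at 1.26 times (1.16 to 1.36) and ADCY7 at 0.89 times (0.82 to 0.97), none of them past the threshold, although the interval of ADCY6 includes it. The median log2 ratio of the 5 genes was -0.17, beside 0.11 over all genes compared. ADCY5, which the filter left out, had a ratio of 2.61 (1.46 to 4.87) from 17 and 44 reads.

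**Figure D4:**
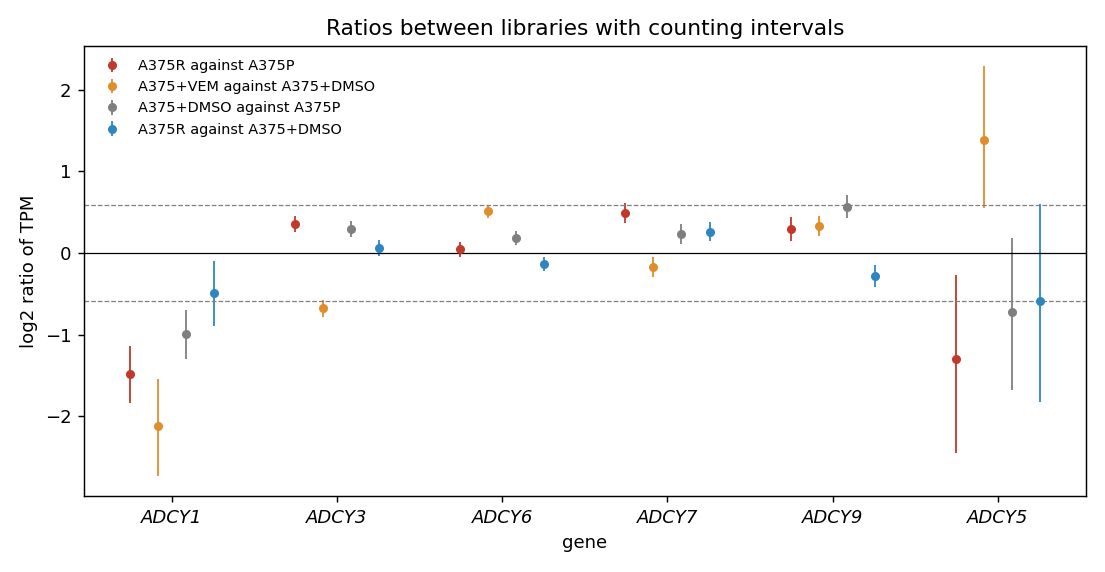
Log2 ratio of TPM, without pseudocount, for the 5 adenylyl cyclase genes compared and for ADCY5, in 4 pairs of libraries, with exact 95% intervals on the reads. Dashed lines mark 1.5-fold; ADCY1 is below the lower line in 3 of the pairs and ADCY3 is just below it in A375+VEM against A375+DMSO.

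The 2 control libraries also differed. Against A375P, ADCY1 was lower in A375+DMSO, at a ratio of 0.502 (0.406 to 0.618), beside 18.9% of 1720 genes lower, 26.8% higher and 45.7% either. ADCY9 was just short of the threshold at 1.48 times (1.35 to 1.63), and ADCY3, ADCY7 and ADCY6 were at 1.23, 1.17 and 1.13 times. This comparison shares A375P with the resistant pair and A375+DMSO with the acute pair. With A375+DMSO as the control of A375R none of the 5 genes was called, against 10.5% of 1702 genes higher, 9.99% lower and 20.5% either. ADCY1 then had a ratio of 0.712 (0.540 to 0.934), ADCY3 1.04 (0.98 to 1.11), ADCY6 0.91 (0.86 to 0.97), ADCY7 1.196 (1.105 to 1.296) and ADCY9 0.83 (0.75 to 0.91). With A375P as the control of A375+VEM, ADCY6 and ADCY9 were called higher, at 1.62 times (1.53 to 1.71) and 1.86 times (1.70 to 2.04), beside 36.9% of 1782 genes. ADCY1 was lower, at a ratio of 0.116 (0.077 to 0.169), beside 25.3%, with 62.1% of genes called in either direction. ADCY3 was at 0.77 (0.71 to 0.83) and not called. ADCY1 therefore had its lowest level in A375+VEM against either control, and the call of ADCY3 rested on A375+DMSO.

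In the coordinates of the authors' table, none of the 10 genes overlapped another of the 2864 genes used here, which do not include CENPO. In GENCODE release 29 on GRCh38, 2 abundant members overlap a neighbour on the opposite strand more widely. BRD7 shares 41.6% of the exon bases of ADCY7, and CENPO shares 24.6% of those of ADCY3. In the authors' table BRD7, a bromodomain protein gene, starts 882 bases beyond the end of ADCY7. BRD7 and CENPO were chosen after seeing values. BRD7 had a TPM of 69.3, 73.6, 66.5 and 54.0. Like ADCY7 it was highest in A375R, while the remaining libraries stood in another order. Whether reads were counted by strand is not given in the sources used here, and the part of these neighbours was not tested. Between members no stretch of 50 bases was shared by their GENCODE coding transcripts.

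ADCY10P1, a pseudogene of ADCY10 spanning 41068773 to 41108573 of chromosome 6, was far above ADCY10 itself. With 122, 27, 29 and 94 reads it had a TPM of 3.12, 0.76, 0.79 and 2.59. A375P and A375+VEM were high and the other 2 libraries low, with no overlap of their intervals. None of its 50-base stretches was found in coding transcripts of ADCY10.

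RefSeq promoter sequences (GRCh38.p14, around a gene's start) were at hand for 7 of the 10 genes, as 10 sequences. Those of ADCY6, ADCY8 and ADCY9 were missing and were not searched. None of these 10 sequences held the full CREB site TGACGTCA, which 1.85% of 35116 promoters hold on either strand. Its shorter form TGACG was in 4 of the 10 sequences, from the 3 members ADCY1, ADCY2 and ADCY3, and in 24.6% of all promoters. The ADCY1 sequences with a match share the same site. The TEAD motif GGAATG, held by 14.0% of promoters, and the E-box CACGTG, held by 7.26%, were in none of the 10 sequences. The matches of the 2 genes called lower in A375+VEM are shown because ADCY1 and ADCY3 are the members whose calls the comparisons turn on, with TGACG in capitals. The first lies at chr7:45574115-45574135 on the plus strand, with the motif starting 17 bases before 1 annotated start and 245 before another, and the second at chr2:24919821-24919835 on the minus strand, 248 bases before its start.
ADCY1: tccccaggTGACGccaagagg
ADCY3: ccTGACGgcgggaga
A match is a description of the letters and not evidence of binding.

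Other genes of cAMP signalling were taken from the part of the alphabet used here, as 6 lists with 45 genes. Melanocortin receptors, G proteins, protein kinase A, phosphodiesterases and CREB were not analysed here. The lists were compared by the same rule, and 27 of their genes had a TPM of 1 or more somewhere. In A375R against A375P, 10 of 25 listed genes compared were higher and 5 lower, against a background of 26.8% and 17.5%, with a median log2 ratio of 0.38 beside 0.10 over all genes. In A375+VEM against A375+DMSO, 6 of 26 were higher and 5 lower, against 26.5% and 19.7%, with a median of -0.08 beside 0.11. With A375+DMSO as the control of A375R, 5 of 26 were higher and 1 lower, against 10.5% and 9.99%. Past 1.5-fold in both pairs were 7 of 24 genes compared in both, and 368 of 1656 over all genes, or 22.2%. Of the 7, 4 moved in the same direction and 3 in opposite directions: ADM, APLN, AGTR1 and AKAP13 in the same, ADRB1, ADORA2A and AVPR2 in opposite ones. Over all genes, 168 of the 368 moved in the same direction and 200 in opposite directions. Other pathway genes named with values were chosen after those were seen.

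Among the 7 listed receptors that couple to Gs and activate adenylyl cyclases, 5 were compared. In A375R 1 was higher and 2 were lower, against 26.8% and 17.5% of all genes. In A375+VEM 2 were higher and 2 lower, against 26.5% and 19.7%. ADORA2A, an adenosine receptor, had a TPM of 3.28, 1.35, 0.85 and 4.09. AVPR2, the vasopressin receptor of the kidney, had 5.58, 2.06, 2.17 and 8.72. Both were high in A375P and A375+VEM and low in the other 2 libraries. ADRB1, the beta-1 adrenergic receptor, had the reverse order with 9, 25, 40 and 7 reads. With the controls exchanged the opposite directions were not kept for ADRB1, at log2 ratios of -0.59 in A375R and -0.19 in A375+VEM, nor for ADORA2A, at 0.62 and 0.31. AVPR2 was then at -0.07 and 0.63, but its ratio in A375R was 0.95 (0.58 to 1.55), an interval that includes 1. ADORA2B was the most abundant of these receptors, with a TPM between 31.2 and 44.9, and was called in neither pair.

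Of the 8 listed receptors that couple to Gi and inhibit adenylyl cyclases, 2 were compared in the resistant pair, where ADORA1 was higher. In the acute pair 3 were compared and C3AR1 was higher. Over all genes compared, 26.8% and 26.5% were higher in these pairs. Of the 8 listed receptors that act through Gq and calcium, 3 were compared in the resistant pair. ADRA1D and AGTR1, the angiotensin receptor, were higher and ADRA1B was lower, against 26.8% and 17.5% of all genes. In the acute pair 2 were compared, and AGTR1 was higher, against 26.5%. AGTR1 had log2 ratios of 2.90 and 0.67 in the 2 pairs, and ADRA1B had -1.97 in the resistant pair. The reads of AGTR1 were 15, 114, 24 and 39, and the counting interval of its acute ratio, 0.96 to 2.84, includes 1.

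Of 5 peptide ligand genes, 3 were compared. ADM and APLN were lower in A375R against A375P, and ADM, ADM2 and APLN in A375+VEM against A375+DMSO. Over all genes compared, 17.5% and 19.7% were lower in these pairs. Adrenomedullin (ADM), whose receptor couples to Gs, had a TPM of 88.7, 18.2, 21.7 and 5.07. ADM2 stood between 34.7 and 43.1 in the 3 other libraries and at 1.66 in A375+VEM. Apelin (APLN), the ligand of a Gi-coupled receptor, had log2 ratios of -0.89 and -2.00. Neither was called in A375R against A375+DMSO. ADCYAP1, the peptide named for activating adenylyl cyclase, and its receptor gene ADCYAP1R1 had at most 23 and 9 reads.

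Downstream, the arrestin genes ARRB1 and ARRB2, whose products switch off and internalise such receptors, were both higher in A375R than in A375P and neither was called in the acute pair. Both were also higher in A375+DMSO than in A375P. In A375R and in A375+DMSO alike, 26.8% of all genes compared were higher than in A375P. Of 15 A-kinase anchoring proteins, which place protein kinase A near its targets, 4 of 10 compared were higher in A375R and 2 of 11 in A375+VEM, with none lower in either, against 26.8% and 26.5% of all genes higher. With the controls exchanged, 1 of 11 was higher in A375R, against 10.5% of all genes. In A375+VEM 3 of 11 were then higher and 1 lower, against 36.9% and 25.3%. AKAP13 was higher in both pairs, at log2 ratios of 0.62 and 0.73. Against A375+DMSO it was at 0.38 in A375R and not called.

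**Figure D5:**
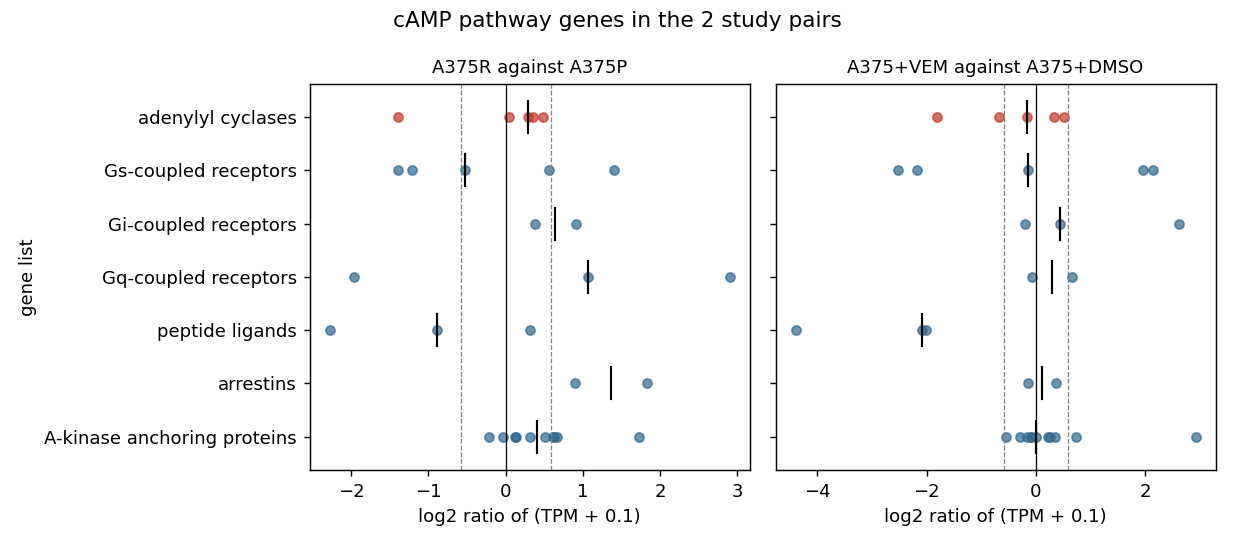
Log2 ratio of (TPM + 0.1) of each gene that passed the filter on low values, by list, for A375R against A375P and A375+VEM against A375+DMSO. Black ticks are list medians and dashed lines 1.5-fold; the peptide ligands of the acute pair all lie below the lower line, and the adenylyl cyclases spread over both sides of 0.

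The genes most like a member were sought by the Euclidean distance between log2(TPM + 0.1) values over the 4 libraries, each gene centred on its own mean, over 1699 genes whose mean TPM was 1 or more. With 4 points, close neighbours are many: 47.2% to 55.3% of genes lay within a distance of 1 of ADCY3, ADCY6, ADCY7 and ADCY9. For ADCY1 it was 2.12%, and its nearest genes were ACTN2 at 0.28 and BYSL at 0.43. ACTN2 is 1 of the 3 cardiac and skeletal muscle markers, with a TPM of 4.02 in A375P and 0.64 in A375+VEM, while the other 2, ACTA1 and ACTC1, stayed under a TPM of 1. The nearest to ADCY3 were ACAD11 and BID, to ADCY6 ACOT8 and C14orf1, to ADCY7 AASDH and ARHGEF1, and to ADCY9 AP2M1 and ALDH2, all at distances of 0.10 or less. Among members, ADCY6 and ADCY9 were closest at 0.27, followed by ADCY3 and ADCY7 at 0.39, and ADCY1 and ADCY9 were farthest apart at 2.58.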

How the data were processed

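RNA of 4 A375 cultures was sequenced, with 1 library per condition, and conditions were taken from the sample labels. The deposited table gives, for every gene, raw counts of reads as integers. Beside them stand TPM values, for which the authors scaled reads per gene length to a fixed library total. The submitters' processing notes name HISAT2, TopHat2, Bowtie2 and HISAT and the build hg19, without versions. The counting program is not given in the sources used here. Genes here come from the start of the alphabet, and 1 incomplete row was left out.

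Ratios of (TPM + 0.1) were computed for all genes, with 1.5-fold as the threshold. Intervals are exact Clopper-Pearson (ratios of reads), exact Poisson (levels), conditional odds ratio (changes of ratios) and Fay-Feuer gamma (sums). The ratio step was tested on simulated reads with counting error alone and changes well past the threshold. It therefore does not cover calls near 1.5-fold or variation between cultures. Named were all members, other ADCY genes, pathway genes past the threshold in both study pairs, and the 2 genes nearest to each member. Members and lists were chosen with earlier results of these data known. A protein comparison was planned and not run. Alternatives were pseudocounts of 1 and 0.01, no filter, a TPM of at least 5, scaling to the median ratio, 2-fold, intervals leaving out 1, and the other control. Other gene lengths, and other controls for ADCY10P1 and ADCY5, were chosen with the data in view. The software was Python 3.11.15, numpy 2.4.6, pandas 2.3.3, scipy 1.17.1 and matplotlib 3.10.9.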

Additional observations from a re-analysis of the deposited data

Results flagged for a closer look

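Some genes moved in opposite directions in the 2 study pairs, with counting intervals that left out a ratio of 1 in both. Single libraries allow no test of such a difference, so it is untested. Over all genes, 200 of the 368 past 1.5-fold in both pairs also moved in opposite directions. The share of all genes by the interval rule was not computed. The log2 ratio of (TPM + 0.1) of ADCY3 was 0.35 for resistant over parental cells and -0.68 for acute vemurafenib over DMSO. ADCY7 was at 0.49 and -0.17. ADCY5, under a TPM of 1 in all libraries, was at -1.01 and 1.16. ADCY10P1 was at -1.90 and 1.59. With the controls exchanged between the pairs, the opposite directions were not kept beyond counting error for any of these genes. ADCY3 was then at 0.06 in A375R, where the ratio was 1.04 (0.98 to 1.11), and at -0.38 in A375+VEM. ADCY7 was at 0.26 and 0.06, the latter a ratio of 1.04 (0.96 to 1.14). ADCY5 was at -0.43 in A375R and 0.58 in A375+VEM, with ratios of 0.67 (0.28 to 1.51) and 1.58 (0.97 to 2.61). ADCY10P1 was at -0.05 and -0.26, with ratios of 0.96 (0.55 to 1.68) and 0.83 (0.63 to 1.10).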

How the results depend on the processing

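With 1 library per condition no library could be left out, and no paired analysis was possible because the conditions share 1 replicate number only. Among the counts of called members, sums and within-library ratios, 53 values under other settings stayed close to the reported value and 14 moved. Most of the 53 were counts of 0 members that stayed at 0, and every rescaled sum was among the 14. The causes were not tested, except that a filter changes which genes are compared. Dropping the TPM filter, 3 members (ADCY1, ADCY4 and ADCY5) were lower in the resistant pair, 1 (ADCY5) was higher in the acute pair and 1 (ADCY8) was lower in A375R against A375+DMSO. At a TPM of at least 5, which removes ADCY1, 0 members were lower in the resistant pair, 1 (ADCY3) in the acute pair and 0 between the controls. At 2-fold, 1 (ADCY1) was lower in the acute pair and 0 between the controls. With the other control, 0 members were lower in A375R, and in A375+VEM 2 were higher and 1 lower. Scaled to a median ratio of 1 against A375P, the summed TPM was 124 for A375R, 126 for A375+DMSO and 124 for A375+VEM. Of the log2 ratios of single genes, 59 values under other settings stayed within the counting interval, 21 left it, and 1 called value changed sign, ADCY10P1 in A375+VEM at -0.26 with A375P as the control. Among the 21 were 4 changes of sign of values that were not called: ADCY6 in A375R, from 0.04 to -0.06 on the median scaling and to -0.14 with A375+DMSO as the control, ADCY9 in A375R, from 0.29 to -0.27 with that control, and ADCY7 in A375+VEM, from -0.17 to 0.06 against A375P.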
